A study of Homo sapiens with 11 samples.

Results

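The multidrug ABC transporters were taken here as 7 genes, ABCB1, ABCC1, ABCC2, ABCC3, ABCC4, ABCC5 and ABCG2, out of 45965 genes in the table. They were chosen by name, with earlier results of these data known. Each symbol occurred in 1 row of the table, and all 7 passed the filter on low counts that left 16324 genes for testing. ABC transporters bind and split ATP to move molecules across membranes. ABCB1 (P-glycoprotein) and ABCG2 pump many unmodified hydrophobic drugs out of cells, while the ABCC proteins (MRPs) also export glutathione, glucuronide and sulfate conjugates. They are known for making tumour cells, lung carcinoma included, resistant to chemotherapy, and ABCB1 has been reported as a gene that mutant p53 can raise.

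The cells were H1299, an established line from a human lung carcinoma, which has lost its own p53. They carried stably transfected mutant p53 with a hotspot mutation, R273H or R175H, on the arginine (R72) or proline (P72) form of codon 72. The study held 1 R273H R72, 4 R273H P72, 3 R175H R72 and 3 R175H P72 libraries, all from cells that had received 5 µg of construct DNA and 14 days of neomycin at 800 µg per ml. Messenger RNA was counted by 3′ tag sequencing, and values below are CPM, estimated counts relative to the library total after TMM scaling. The labels call the lines isogenic and do not say whether each was 1 clone, or whether replicates came from separate cultures, so p-values measure only the spread between these libraries. No library without mutant p53 was analysed here.

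Libraries held 8346926 to 12829560 estimated counts. The sample descriptions in the labels name a batch, b1 for R273H P72 replicates 2, 3 and 4 and R175H R72 replicate 1, and b2 for the other 7 libraries, R175H P72 included. They do not say what a batch stands for. KRT8, KRT18, VIM, CD44 and ANXA2, chosen as markers of the line, summed to 3525 CPM in R273H R72, 3104 to 3192 in R273H P72, 3584 to 3853 in R175H R72 and 3850 to 4135 in R175H P72. Of 6 fibroblast markers COL1A2 and LUM were at 0 in every library, and the list summed to 3.11 to 6.57 CPM in R273H P72 and 1.79 to 2.75 in R175H P72. The leukocyte list reached at most 11.8 CPM, with CD3E at 0, and the endothelial, airway, and hepatocyte and kidney lists at most 1.56, 0.96 and 0.467 CPM. The part of these markers in the results below was not tested.

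The differences that passed among the 7 genes lay between the hotspot mutants on P72, where 14.6% of all genes tested passed. ABCB1 was 1.58-fold and ABCC5 1.55-fold higher in R273H P72 than in R175H P72. The libraries of the groups did not overlap, as for 14% of all genes in this direction. These folds were fitted with a term for batch, while the CPM compared for overlap were not adjusted for it. All R175H P72 libraries were of batch b2, and of R273H P72 only replicate 1 was. ABCC1 passed the same test at 1.45-fold with a term for batch and did not pass without it. ABCC4 had 1.19-fold, and ABCC2, ABCC3 and ABCG2, at 12 to 58 counts per library, were measured too loosely to place. No member passed between the hotspots on R72, or between the codon 72 forms on either hotspot. In none of these comparisons did more than 1.13% of all genes pass, and R273H R72 is a single library. The lack of calls is therefore not read as a result about the members.

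**Figure D1:**
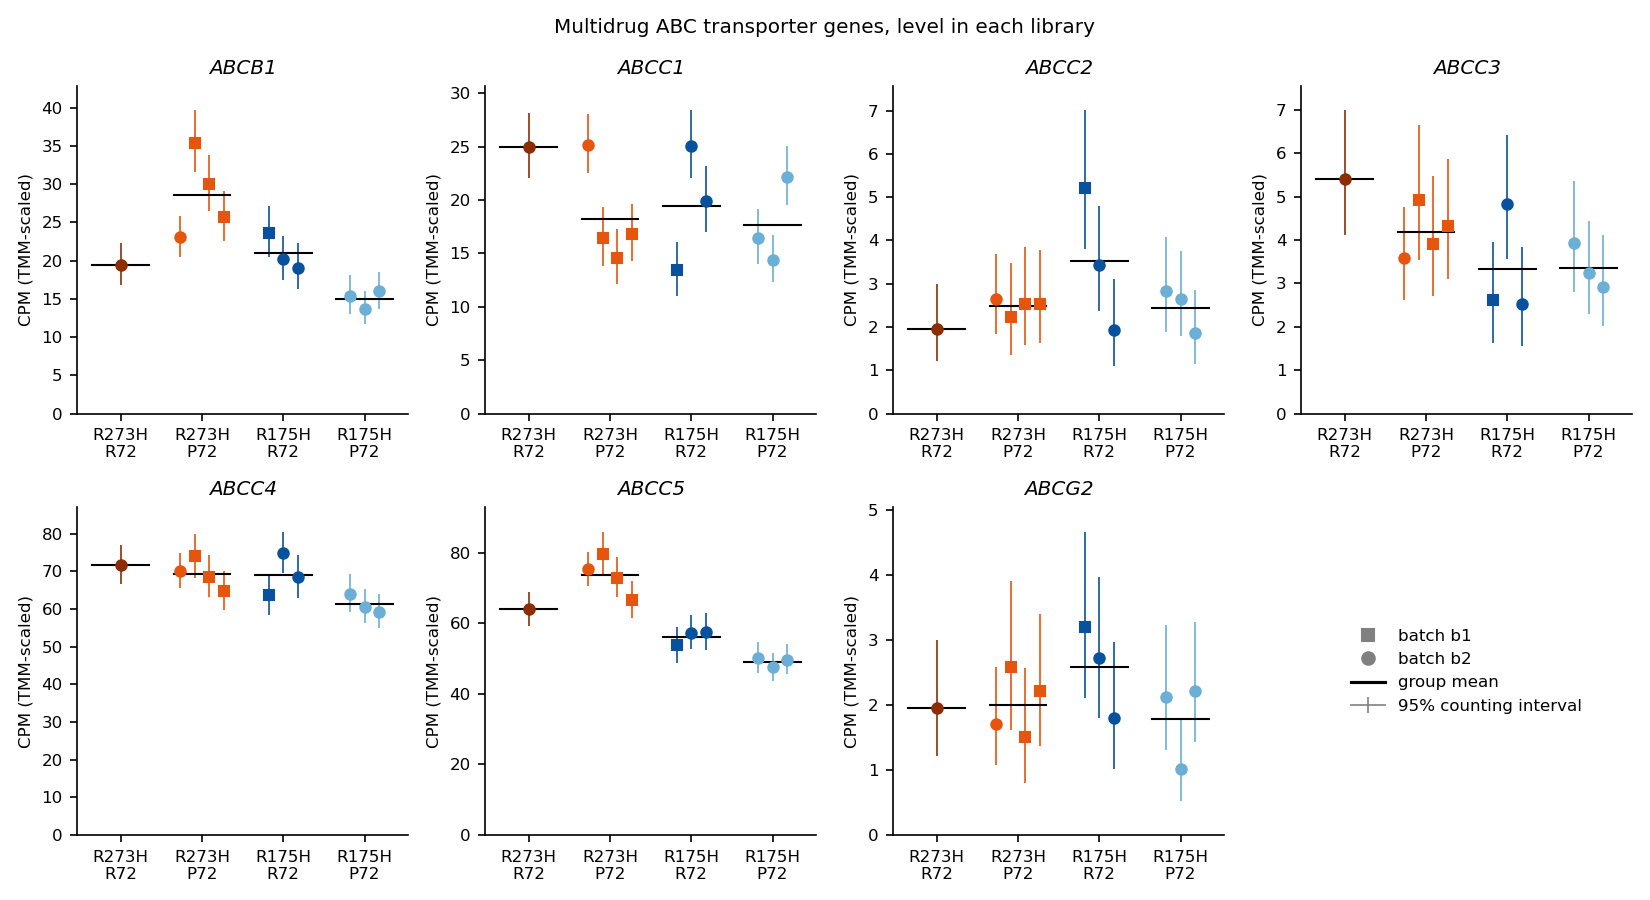
Level of each of the 7 genes (y axis, TMM-scaled CPM from 0) in every library, by group (x axis); squares are batch b1, circles b2, thin bars the 95% counting interval and black lines the group mean. All 4 R273H P72 libraries lie above all 3 R175H P72 libraries for ABCB1 (23.0 to 35.4 against 13.7 to 16.0 CPM), ABCC5 and ABCC4. This order was seen in 14% of genes tested. ABCC1 has 13.4 to 16.8 CPM in the 4 b1 libraries and 14.4 to 25.2 in the 7 b2 libraries.

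ABCB1 (ENSG00000085563, hg38 chromosome 7, 87503633 to 87713323, minus strand) encodes P-glycoprotein, the best known efflux pump for anthracyclines, taxanes and vinca alkaloids. The RefSeq promoter table (GRCh38.p14, 250 bases before to 50 after a start) held 5 of the 7 members by symbol, all but ABCC1 and ABCC3. The promoters of ABCB1, at the downstream of its listed starts, and of ABCC5 are shown because these genes passed both the hotspot test on P72 and the test over the 4 groups. Capitals mark CCAAT or its reverse ATTGG, the GC box GGGCGG or its reverse CCGCCC, and TATAAA or its reverse TTTATA. ABCB1 lies at chr7:87600835-87601134 and ABCC5 at chr3:184017835-184018134, both read on the minus strand.
ABCB1: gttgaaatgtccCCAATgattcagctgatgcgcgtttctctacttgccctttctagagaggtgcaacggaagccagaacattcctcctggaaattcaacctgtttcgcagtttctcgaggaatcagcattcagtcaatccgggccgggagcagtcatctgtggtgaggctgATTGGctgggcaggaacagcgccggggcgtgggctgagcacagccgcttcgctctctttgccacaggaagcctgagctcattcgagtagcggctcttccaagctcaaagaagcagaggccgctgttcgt
ABCC5: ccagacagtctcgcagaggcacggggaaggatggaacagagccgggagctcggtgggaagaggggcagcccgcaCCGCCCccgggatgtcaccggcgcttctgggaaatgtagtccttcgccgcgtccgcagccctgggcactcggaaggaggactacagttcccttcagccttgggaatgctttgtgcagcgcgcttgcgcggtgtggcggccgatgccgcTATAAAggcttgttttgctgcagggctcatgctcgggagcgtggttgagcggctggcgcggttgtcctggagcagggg
The ABCB1 window held CCAAT at position -238 and ATTGG at -79 from the start, and none of the other letters. The ABCC5 window held CCGCCC at -176 and TATAAA at -28, and no CCAAT. Of 35116 promoters of this length, 34.6% held the CCAAT letters on either strand, 45.0% the GC box and 11.5% TATAAA. No matches overlapped in the windows shown. GC content was 55.3% in the ABCB1 and 65.7% in the ABCC5 window. A match is only a description, and 3′ tags do not show which start a transcript used.

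ABCB1 had 23.0, 35.4, 30.0 and 25.7 CPM in R273H P72 replicates 1 to 4, against 15.4, 13.7 and 16.0 CPM in R175H P72 replicates 1, 2 and 4. Every R273H P72 library was above every R175H P72 library, which held for 14% of all genes tested. The fitted log2 fold change was 0.66 (SE 0.15, 95% interval 0.34 to 0.98, adjusted p = 0.00553, edgeR quasi-likelihood test, Benjamini-Hochberg over 16324 genes). The batch b1 libraries were the 3 highest of R273H P72, and the batch term of ABCB1 was 0.34 (b1 over b2, adjusted p = 0.111). In batch b2 alone, with 1 R273H P72 library, the log2 fold change was 0.61 (adjusted p = 0.0454), and without R273H P72 replicate 1, the b2 library, it was 0.75 and not called (adjusted p = 0.0597).

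On R72 the hotspots were not separated for ABCB1. The single R273H R72 library had 19.4 CPM (208 counts, exact 95% binomial interval 16.9 to 22.2 CPM, counting error only), against 23.6, 20.2 and 19.1 CPM in R175H R72 replicates 1, 2 and 4. It lay within their range, with a log2 fold change of 0.0078 (95% interval -0.38 to 0.39). The order of the ABCB1 means was thus R273H P72 at 28.5 ± 5.42 CPM (SD, n = 4), R175H R72 at 21.0 ± 2.37 (SD, n = 3), R273H R72 at 19.4 and R175H P72 at 15.0 ± 1.17 (SD, n = 3). The ranges of R273H P72 and R175H R72 overlapped at 23.0 and 23.6 CPM, so these neighbours were not separated.

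By codon 72 form, ABCB1 was 1.28-fold higher in R175H R72 than in R175H P72 (log2 fold change 0.36, SE 0.14). The 3 R72 libraries lay above the 3 P72 libraries, as for 6.81% of genes tested, and the adjusted p was 0.231, so the difference did not pass. On R273H the sign was opposite and again not called, with 19.4 CPM in the R72 library and 23.0 to 35.4 CPM in the P72 libraries (log2 fold change -0.29, SE 0.20, adjusted p = 0.776). The R72 library lay below all 4 P72 libraries, as for 24% of genes tested. The difference of the R72 effects, R273H minus R175H, was -0.65 (95% interval -1.19 to -0.11, unadjusted p = 0.0198 and adjusted p = 0.378 by edgeR's quasi-likelihood test), so unequal effects were not shown. RUNDC3B overlaps ABCB1 on the opposite strand without sharing exonic bases. It had 7.38 ± 0.961 CPM in R273H P72 (SD, n = 4) and 10.9 ± 0.731 in R175H P72 (SD, n = 3), with an adjusted p of 0.107 (edgeR).

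ABCC5 (ENSG00000114770, hg38 chromosome 3, 183919934 to 184018015, minus strand) encodes MRP5, an exporter of cyclic nucleotides and nucleotide analogues. It had 75.4, 79.8, 73.0 and 66.6 CPM in R273H P72 replicates 1 to 4, against 50.2, 47.6 and 49.7 CPM in R175H P72 replicates 1, 2 and 4. The lowest R273H P72 library was well above the highest R175H P72 library, and 14% of genes tested had no overlap in this direction. The log2 fold change was 0.63 (SE 0.10, 95% interval 0.42 to 0.85, adjusted p = 0.000346), with the smallest adjusted p of the 7 genes. The gene was called in all 11 fits that left out a library (0.61 to 0.67) and without a batch term (0.58). In batch b2 alone, where R273H P72 is 1 library assumed to vary like the others, the value was 0.61. The fit without R175H R72 replicate 1 rests on that same R273H P72 library, because b1 then holds only R273H P72. The batch term itself was -0.07 for ABCC5 (b1 over b2, adjusted p = 0.725).

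No 2 of the 4 groups overlapped for ABCC5, as for 0.858% of all genes tested, with R273H R72 a single library. Means, or the single value, were 64.0 CPM in the R273H R72 library (686 counts, 95% binomial interval 59.3 to 69.0), 73.7 ± 5.5 in R273H P72 (SD, n = 4), 56.2 ± 2.16 in R175H R72 (SD, n = 3) and 49.2 ± 1.37 in R175H P72 (SD, n = 3). R175H R72 ran from 53.8 to 57.6 CPM, so R273H R72 was above it, but this R72 hotspot difference was not called (log2 fold change 0.16, SE 0.12, adjusted p = 1), and 22.9% of genes tested showed such an order. R72 over P72 was 0.22 (SE 0.09, adjusted p = 0.295) on R175H, an order seen in 6.81% of genes, and -0.25 (SE 0.13, adjusted p = 0.689) on R273H, an order seen in 24%. Their difference was -0.47 (95% interval -0.83 to -0.11, unadjusted p = 0.0134, adjusted p = 0.327 by edgeR's quasi-likelihood test).

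ABCC1 (ENSG00000103222, hg38 chromosome 16, 15949577 to 16143074, plus strand) encodes MRP1, which exports glutathione conjugates such as leukotriene C4. It had 25.2, 16.4, 14.5 and 16.8 CPM in R273H P72 replicates 1 to 4, against 16.4, 14.4 and 22.2 CPM in R175H P72 replicates 1, 2 and 4. The groups overlapped, and their means were 18.2 ± 4.74 (SD, n = 4) and 17.7 ± 4.03 CPM (SD, n = 3). The fitted log2 fold change of 0.54 (SE 0.17, adjusted p = 0.0407) therefore rests on the batch term, which was -0.70 for ABCC1 (b1 over b2, adjusted p = 0.00525). Without that term it was 0.06 (adjusted p = 0.903), and in batch b2 alone, where R273H P72 has only replicate 1, it was 0.51 (adjusted p = 0.186). With 1 library left out the call was lost in 7 of 11 fits, those without R175H P72 replicate 1 or 2, R175H R72 replicate 1 or 2, or R273H P72 replicate 1, 2 or 4, at 0.41 to 0.61.

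For ABCC1 the 4 b1 libraries had 13.4 to 16.8 CPM and the 7 b2 libraries 14.4 to 25.2 CPM. R175H R72 replicate 1, of b1, had 13.4 CPM, below 25.1 and 19.9 CPM in replicates 2 and 4 of b2, and the R273H R72 library of b2 had 25.0 CPM (95% binomial interval 22.1 to 28.2). R72 over P72 was 0.34 (SE 0.15, adjusted p = 0.335) on R175H and -0.04 (SE 0.22, adjusted p = 0.986) on R273H. R273H over R175H on R72 was 0.16 (95% interval -0.26 to 0.59).

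**Figure D2:**
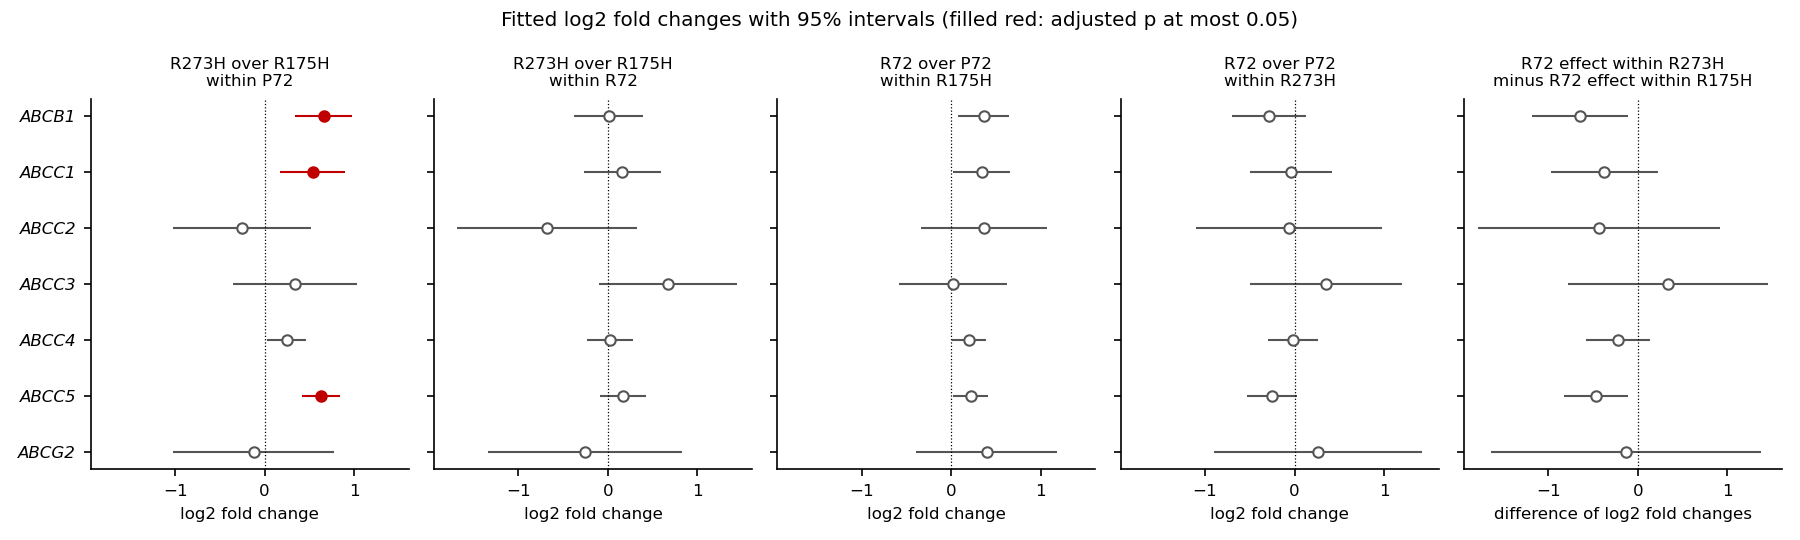
Fitted log2 fold change (x axis) of each gene (rows) in 5 comparisons (panels), with 95% intervals; filled red points passed an adjusted p of 0.05. ABCB1, ABCC1 and ABCC5 passed between the hotspots on P72, none in the other panels, and the intervals of ABCC2, ABCC3 and ABCG2 are the widest.

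ABCC4 (ENSG00000125257, hg38 chromosome 13, 95019829 to 95301475, minus strand) encodes MRP4, which exports cyclic nucleotides and prostaglandins. It had 70.1, 74.0, 68.5 and 64.7 CPM in R273H P72 replicates 1 to 4, against 64.1, 60.6 and 59.3 CPM in R175H P72 replicates 1, 2 and 4. The groups did not overlap, by a margin of less than 1 CPM, an order seen in 14% of genes tested. The log2 fold change of 0.24 (SE 0.10, 95% interval 0.03 to 0.46) did not pass edgeR's test (adjusted p = 0.121). R175H R72 had 63.6, 74.9 and 68.4 CPM, and the R273H R72 library had 71.7 CPM (95% binomial interval 66.7 to 76.9). R72 over P72 was 0.20 (SE 0.09, adjusted p = 0.333) on R175H, where the libraries overlapped, and -0.02 (95% interval -0.30 to 0.26) on R273H. Over the 11 libraries ABCC4 varied from 59.3 to 74.9 CPM.

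ABCC2 and ABCC3 encode MRP2 and MRP3, exporters of glucuronide and glutathione conjugates best known from liver cells. ABCC2 (ENSG00000023839, hg38 chromosome 10, 99782640 to 99852594, plus strand) had 1.96 CPM in R273H R72, 2.23 to 2.64 in R273H P72, 1.92 to 5.22 in R175H R72 and 1.86 to 2.82 in R175H P72. Its highest library was R175H R72 replicate 1, with 44 counts. ABCC3 (ENSG00000108846, hg38 chromosome 17, 50634777 to 50692252, plus strand) had 5.41 CPM in R273H R72, 3.58 to 4.93 in R273H P72, 2.52 to 4.84 in R175H R72 and 2.93 to 3.93 in R175H P72. The R273H R72 library was the highest for ABCC3, with 58 counts. It lay above all 3 R175H R72 libraries, as for 22.9% of genes tested, with a fitted log2 fold change of 0.67 (95% interval -0.10 to 1.45). It also lay above all 4 R273H P72 libraries, as for 23.3% of genes tested. ABCC2 in the same library lay below those 4, as for 24% of genes tested. None of these differences was called by edgeR.

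ABCG2 (ENSG00000118777, hg38 chromosome 4, 88090264 to 88231322, minus strand) encodes BCRP, a transporter that works as a dimer and exports mitoxantrone and topotecan. It had 1.96 CPM in R273H R72, 1.5 to 2.58 in R273H P72, 1.80 to 3.20 in R175H R72 and 1.02 to 2.22 in R175H P72, with overlap between all groups. Between the hotspots on P72 the log2 fold changes were -0.12 for ABCG2 (95% interval -1.02 to 0.78), -0.25 for ABCC2 (-1.02 to 0.52) and 0.34 for ABCC3 (-0.35 to 1.03). For ABCG2 and ABCC3 the differences seen for ABCB1 and ABCC5 lie inside these intervals and were not detectable at 12 to 58 counts per library. No bound is read for ABCC2, whose value was 0.12 without R175H R72 replicate 1 and -0.94 without R273H P72 replicate 1.

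As a list, 3 of the 7 genes were higher and 0 lower in R273H P72 than in R175H P72, where 6.95% of all 16324 genes were called higher and 7.6% lower. The median log2 fold change was 0.34 over the 7 and 0.00 (0.00303) over all genes tested. The 7 were chosen with earlier results of these data known, so these figures only describe them. In the test over the 4 groups together 2 of 7 passed, ABCB1 (adjusted p = 0.0342) and ABCC5 (adjusted p = 0.0015), where 10.7% of all genes did. The ABCB1 call there was lost with the replicate number as a block (adjusted p = 0.112), in batch b2 alone (0.124), after GC correction (0.0672), and in 6 of 10 fits with 1 library left out, namely R175H P72 replicate 1 or 2, R175H R72 replicate 1 or 2, or R273H P72 replicate 1 or 3, at 0.0557 to 0.164. ABCC1, at 0.115, was called there without R175H P72 replicate 4 (0.0157) or with no filter on low counts (0.0231).

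By codon 72 form on R175H all 7 values were positive, from 0.02 for ABCC3 to 0.40 for ABCG2, with a median of 0.34 against -0.00093 over all genes. None passed edgeR's test, where 1.13% of genes were called. Limma-voom called 0, as did DESeq2 among the 4 members to which it gave an adjusted p. By edgeR 4 had an unadjusted p under 0.05 (ABCB1, ABCC5, ABCC4 and ABCC1). The shares of all genes with an unadjusted p under 0.05, or with a positive value, were not counted in any comparison. No shift of the members is therefore read from these counts. On R273H the 7 values ran from -0.29 to 0.35 with a median of -0.04. There edgeR called 0 members and 0% of all genes, 0 members had an unadjusted p under 0.05, limma-voom called 0, and DESeq2 called 0 of the 2 members to which it gave an adjusted p, ABCC4 and ABCC5. For R273H over R175H on R72 the median was 0.03, with 0 members called by edgeR, limma-voom and DESeq2, 0 at an unadjusted p under 0.05 and 0.0429% of all genes called. For the difference of the R72 effects edgeR called 0.0306% of genes and 0 members, with ABCB1 and ABCC5 at an unadjusted p under 0.05. There limma-voom called 0, and DESeq2 called 0 of ABCC4 and ABCC5, the members to which it gave an adjusted p. The R273H R72 group of these 3 comparisons is 1 library, assumed to vary like the others.

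**Figure D3:**
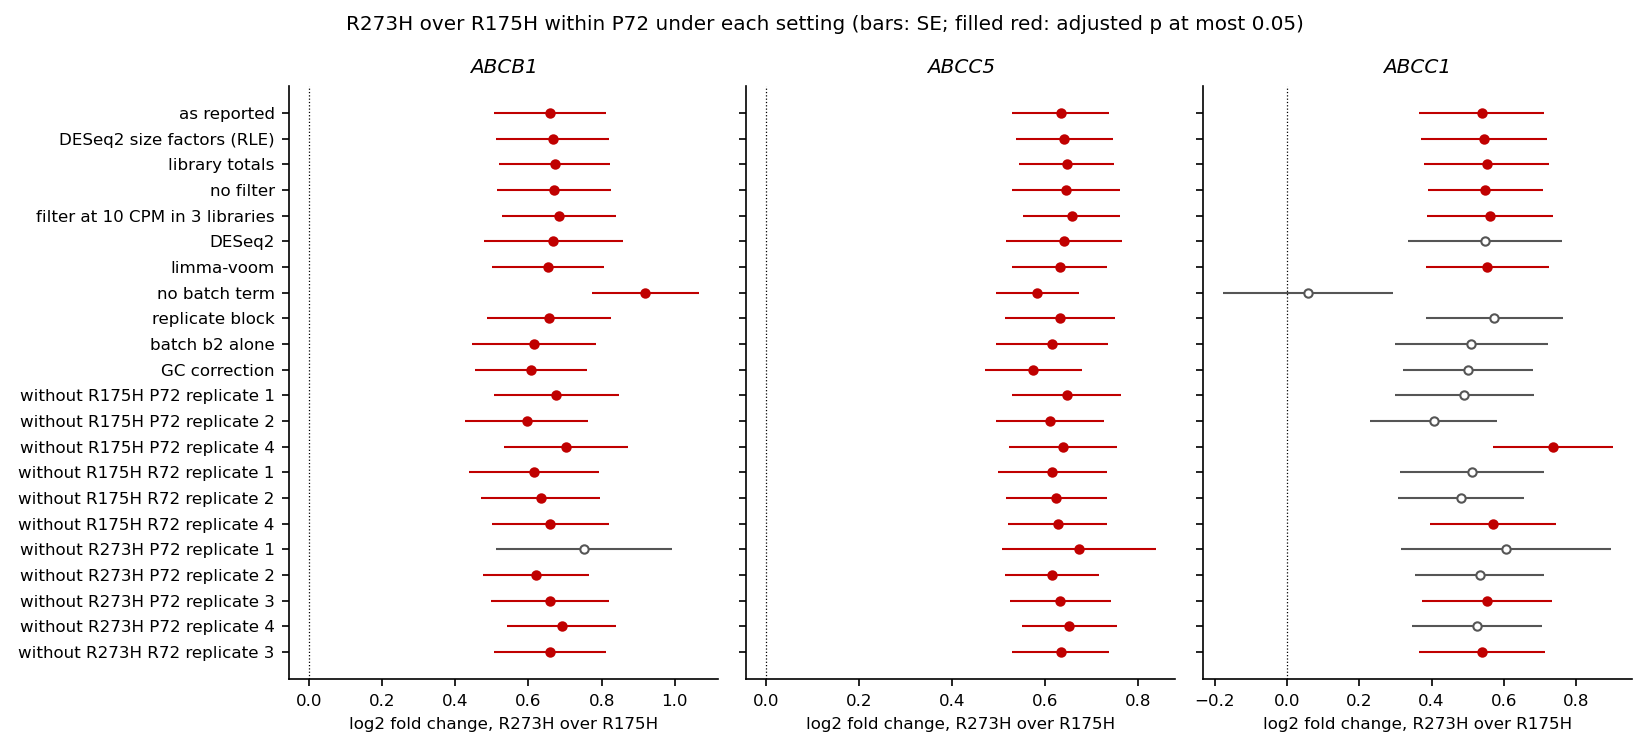
Log2 fold change of R273H over R175H within P72 (x axis, bars: SE) for ABCB1, ABCC5 and ABCC1 under every setting (rows); filled red points have an adjusted p of at most 0.05. ABCC5 is called in all rows, ABCB1 in all but 1, and ABCC1 drops to 0.06 without a batch term.

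The other genes of the ABC family were counted in the same way between the hotspots on P72. Of 41 listed, 28 were tested, and 3 were higher and 1 lower in R273H, or 14.3%, against 14.6% of all genes. TAP2, a subunit of the peptide transporter for antigen presentation, had 432 ± 51.5 CPM in R273H P72 (SD, n = 4) and 270.3 ± 19.0 in R175H P72 (SD, n = 3), a log2 fold change of 0.78 (SE 0.12, adjusted p = 0.000277). ABCB6, a porphyrin transporter, was 1.69-fold higher with 14.6 ± 2.12 and 9.2 ± 1.48 CPM, and ABCF1, a soluble protein of translation, was 1.29-fold higher. ABCB9, a lysosomal peptide transporter, was 1.39-fold lower in the fit, with 107 ± 11.1 and 125 ± 8.51 CPM. Its groups overlapped, with 98.3 to 123 CPM in R273H P72 and 115 to 131 CPM in R175H P72. TAP2 was called under all 21 other settings, ABCB6 under 20, and ABCF1 and ABCB9 under 18 each, ABCB9 not without a batch term (-0.22). The median log2 fold change was 0.10 for these 28 genes. ABCA1, the cholesterol exporter, passed only the test over the 4 groups (adjusted p = 0.0282), with 18.1 CPM in R273H R72, 11.2 to 14.3 in R273H P72, 19.2 to 21.5 in R175H R72 and 15.5 to 19.1 in R175H P72.

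**Figure D4:**
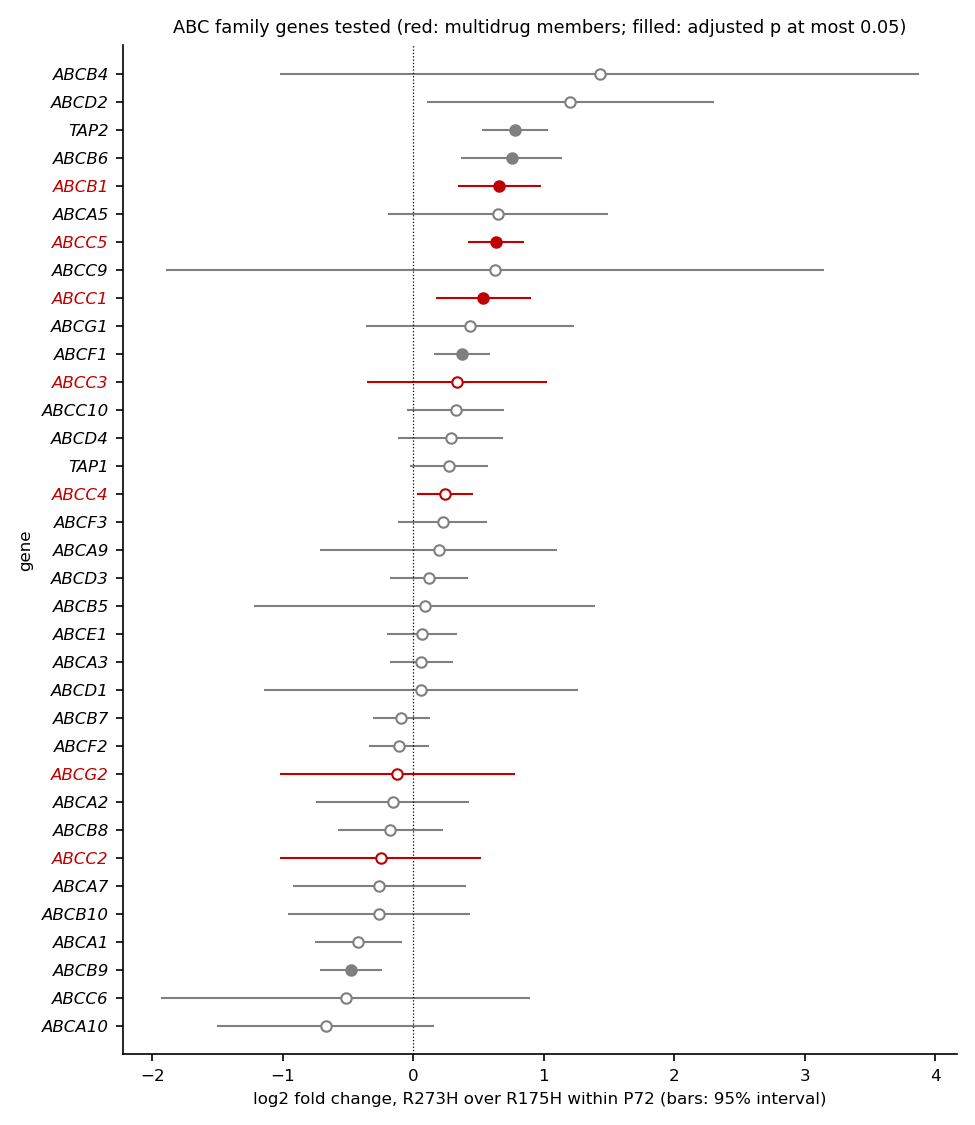
Log2 fold change of R273H over R175H within P72 (x axis, 95% intervals) for the 35 tested genes of the ABC family (rows), multidrug members in red; filled points passed an adjusted p of 0.05. ABCB1, ABCC5 and ABCC1 lie at 0.54 to 0.66, below TAP2 and ABCB6, and ABCB9 is the called gene on the lower side.

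Genes that work alongside the efflux pumps were mixed between the hotspots on P72. Of 32 drug uptake carriers 18 were tested, and 6 were higher and 1 lower in R273H, with a median of 0.49. That is 38.9% of them, against 14.6% of all genes tested. This list and those below were also chosen with earlier results of these data known, so their shares are descriptions. SLC16A1, a lactate and drug carrier, had 189 ± 20.2 CPM in R273H P72 (SD, n = 4) and 130.4 ± 4.66 in R175H P72 (SD, n = 3), and SLC31A1, the copper and cisplatin carrier, had 123 ± 6.95 and 95.3 ± 7.08 CPM. Their adjusted p-values were 0.00144 and 0.00245 by edgeR, and SLC22A18 was 1.89-fold lower, though not called without a batch term (log2 fold change -0.56). Of efflux and sequestration genes outside the family 1 of 7 tested was higher (14.3%), LAPTM4B (1.34-fold), a lysosomal membrane protein.

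Among 17 tested genes of glutathione synthesis and conjugation, whose products the ABCC proteins export, 2 were higher and 2 lower in R273H P72, or 23.5%, against 14.6% of all genes tested. SLC7A11, the cystine importer, had 203 ± 23.0 CPM in R273H P72 (SD, n = 4) and 144 ± 17.3 in R175H P72 (SD, n = 3), with a log2 fold change of 0.70 (SE 0.11, adjusted p = 0.000207). MGST1 had a fitted fold of 1.86, with 31.6 to 65.6 CPM in R273H P72 and 29.1 to 41.7 CPM in R175H P72, which overlapped, and without a batch term it was not called (0.29). GSTZ1 was 1.51-fold lower, and of all list genes only GSTZ1 was called for R72 over P72 on R175H (-0.37, adjusted p = 0.0464 by edgeR). The libraries of those groups overlapped, with 62.0 to 97.8 CPM in R175H R72 and 76.8 to 87.1 CPM in R175H P72. Between the hotspots on P72 the GSTZ1 libraries also overlapped, with 57.1 to 83.4 CPM in R273H P72, and without a batch term GSTZ1 was not called (-0.18). Of 14 tested genes listed under glucuronidation and sulfation 3 were higher and 1 lower (28.6%). Among them were UGT8 (1.55-fold higher), SULT4A1 and SULT1C2, the last pair called under 10 and 11 of 20 other settings. A place on this list does not show that a gene's product conjugates drugs. Of 13 genes of drug oxidation 0 were higher and 2 lower (15.4%), CYB5R3 (1.44-fold) and the quinone reductase NQO1 (1.32-fold).

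Of 43 tested regulators reported for multidrug transporter genes, 3 were higher and 5 lower in R273H P72, with a median of -0.10. That is 18.6%, near the 14.6% of all genes tested. NFYC, a subunit of the factor that binds CCAAT boxes, had 38.5 ± 5.25 CPM in R273H P72 (SD, n = 4) and 56.2 ± 3.46 in R175H P72 (SD, n = 3), a log2 fold change of -0.65 (SE 0.13, adjusted p = 0.00186). It was called under all 21 other settings. DNMT1, the maintenance DNA methyltransferase, had a fitted fold of 1.55 and KLF6, a zinc finger factor, of 1.35, and neither was called without a batch term (0.23 each). The groups overlapped for both genes, DNMT1 with 319 to 527 CPM in R273H P72 and 321 to 351 CPM in R175H P72. Of 10 trafficking and scaffold genes 1 was lower (10%), EZR, the gene of ezrin, which links membrane proteins to actin (1.29-fold, and not called without a batch term). Of the 20 list genes named by smallest p on P72, 12 were called without a batch term, 11 in batch b2 alone, 14 without R273H P72 replicate 1, 13 without R175H R72 replicate 1 and 17 to 20 without any other library.

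Likeness of pattern was described by Pearson's r of log2 CPM over the 11 libraries, which share groups and batches, among 8967 genes averaging 10 CPM or more. Nearest to ABCB1 were TMX2 (r = 0.978), MTDH (0.969) and MKI67 (0.965), and nearest to ABCC5 were HMGCS1 (0.97), SRRT (0.97) and RRM1 (0.969). ABCC4 was most like CALU (0.953), RP4-549L20.3 (0.949) and MAGT1 (0.946). ABCC1 was most like MFSD14B (0.987), POLR2K (0.987) and F2RL1 (0.976). Among the members themselves r was 0.875 for ABCB1 with ABCC5, 0.698 for ABCC4 with ABCC5 and 0.573 for ABCB1 with ABCC4. For ABCC1 it was 0.434 with ABCC4, 0.144 with ABCC5 and -0.184 with ABCB1. These are descriptions without a test.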

How the data were processed

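Per the labels' protocols, 11 H1299 libraries were prepared from total RNA with Lexogen's QuantSeq 3′ kit and read as single 75 bp reads. The authors deposited whole-number estimated counts for Ensembl genes, with Bowtie2, RSEM 1.2.12, DESeq2 and hg38 named, per the submitters' processing notes. The use of strand is not stated in these sources. Rounding changed no value.

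The filterByExpr rule (minimum count 10, total 15) left 16324 genes, which were scaled by TMM (factors 0.979 to 1.03) and fitted with edgeR 4.0.16 in R 4.3.3 (robust quasi-likelihood, 4 groups and batch over all 11 libraries). Benjamini-Hochberg adjustment covered these 16324 genes, and calls needed an adjusted p of at most 0.05. Standard errors are the log2 fold change over the root of F. The procedure was also run on simulated counts drawn without a batch effect, which cannot test how batch was handled. Coordinates are from GENCODE 29 and promoters from RefSeq. All members were reported, and from each of 11 gene lists up to 3 called genes with the smallest p per comparison. The members and lists were chosen with earlier results of these data known. Alternatives were DESeq2 1.42.0 size factors, library totals, 2 other filters, DESeq2, limma-voom (limma 3.58.1), no batch term, a replicate block, batch b2 alone, GC correction by the last 500 nt of transcripts, and each library left out. Intervals of CPM are exact binomial and cover counting error only. No replicate pair was as close as sampling noise (chi-square over its degrees of freedom 4.24 to 20.1), and none was merged. A check of the transfected gene's own level is not reported here.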

Additional observations from a re-analysis of the deposited data

How the results depend on the processing

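Between the hotspots on P72, ABCC5 kept its call under every alternative run, and ABCB1 under all but the fit without R273H P72 replicate 1. The 7 genes had 3 calls there, 1 to 3 with 1 library left out. The call of ABCC1 was lost with DESeq2, without a batch term, with the replicate block, in batch b2 alone and after GC correction. In the test over the 4 groups 2 members were called, but 1 with the replicate block, in batch b2 alone or after GC correction, and 1 to 3 with 1 library left out. In the other 4 comparisons no member that had a value was called under an alternative. DESeq2 gave an adjusted p there to 4 members for R72 over P72 on R175H, to 2 on R273H and for the difference of the effects, and to 7 for the hotspots on R72. No shared source behind the replicate numbers was detected. Deviations of same-numbered libraries correlated at -0.252 to 0.191 over 8 of 9 pairs. The other pair, R175H R72 replicate 1 with R273H P72 replicate 1, was left out because each is alone in its group's batch, which fixes r at 1 in a model with group and batch. For the same reason 2 of the 8 values are equal (-0.114). So few values, tied by the model, cannot exclude a shared source. The 3 comparisons with R273H R72, and the test over the 4 groups, could not be fitted without the single R273H R72 library. ABCC2, ABCC3 and ABCG2 had no value under the stricter filter. Without R175H R72 replicate 1, b1 holds only R273H P72 libraries. R273H over R175H on P72 then rests on R273H P72 replicate 1, as in batch b2 alone, so these fits are not separate checks. Where a call was lost, the cause was not tested.

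Counts of genes called moved as follows. For R72 over P72 on R175H, 185 became 564 with no filter, 333 with DESeq2, 6 without a batch term, 81 with the replicate block, 57 after GC correction and 24 to 272 with 1 library left out. For R72 over P72 on R273H, 0 became 137 with no filter, 112 with DESeq2, 2 with the replicate block, 1 in b2 alone and 0 to 6 with 1 library left out. For R273H over R175H on P72, 2376 became 866 in b2 alone and 1214 to 2463 with 1 library left out. On R72, 7 became 16 with no filter, 2 with the stricter filter, 14 with DESeq2, 3 with limma-voom or without a batch term, 2 with the replicate block and 3 to 9 with 1 library left out. For the difference of the R72 effects, 5 became 196 with no filter, 138 with DESeq2, 1 without a batch term or after GC correction, 2 with the replicate block and 0 to 48 with 1 library left out. For the 4 groups, 1747 became 2693 with no filter, 1128 without a batch term, 819 with the replicate block, 556 in b2 alone and 922 to 2080 with 1 library left out.

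Log2 fold changes that reversed were all uncalled. For R72 over P72 on R175H, ABCC3 was -0.0337 with limma-voom and -0.0267 with the replicate block. On R273H, ABCC1 was 0.443 without a batch term and 0.101 with the replicate block, ABCC2 was 0.0545 with the replicate block, ABCC4 was 0.0156 by library totals, 0.0476 without a batch term and 0.027 in b2 alone, and ABCG2 was -0.0229 without a batch term. Between the hotspots on P72, ABCC2 was 0.034 without a batch term and 0.116 in b2 alone, and ABCG2 was 0.165 without a batch term. On R72, ABCB1 was -0.11 without a batch term, -0.0235 in b2 alone and -0.026 after GC correction, ABCC4 was -0.00743 in b2 alone and -0.00813 after GC correction, and ABCG2 was 0.451 with the replicate block. For the difference of the R72 effects, ABCC1 was 0.297 without a batch term and ABCG2 was 0.496 with the replicate block.

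With 1 library left out, the ranges that crossed 0 were as follows. For R72 over P72, ABCC3 ran from -0.504 to 0.226 on R175H, and on R273H ABCC1 ran from -0.114 to 0.00959, ABCC2 from -0.43 to 0.62, ABCC3 from -0.224 to 0.596 and ABCC4 from -0.132 to 0.0309. For R273H over R175H, ABCC2 ran from -0.941 to 0.117 and ABCG2 from -0.41 to 0.0738 on P72, and ABCB1 from -0.0253 to 0.0552 and ABCC4 from -0.012 to 0.0929 on R72. For the difference of the R72 effects, ABCC2 ran from -0.935 to 0.469, ABCC3 from -0.377 to 1.04 and ABCG2 from -0.429 to 0.156.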
